A study of Homo sapiens with 12 samples.

Results

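The genes described are the ZNF genes that SK-OV-3 cells expressed on every array of the series, where a ZNF gene is one whose platform symbol is ZNF followed only by digits. The members were selected on measured values: a probe had to have a detection p-value under 0.05, against the negative controls of its array, on all 12 arrays, and of several such probes for a symbol the one with the highest mean signal was kept. The array carries 642 probes for 443 ZNF symbols, and 238 symbols became members. Of the other 205 symbols, 120 had a probe detected on at least 3 arrays and were tested as well, 85 were not tested, and 51 had no probe detected on any array. The rule demands a signal with and without drug, so it leaves out genes that CDDP took below or brought above detection: 17 ZNF symbols outside it were detected on all 6 arrays without CDDP and on fewer with it, and 31 showed the reverse. Just inside the threshold stood ZNF101, ZNF844 and ZNF670, with highest detection p-values of 0.0494, 0.0468 and 0.0481. Just outside stood ZNF679 at 0.0506, ZNF135 at 0.0532 and ZNF704 at 0.0571.

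Each sample was hybridised to an Illumina bead array for messenger RNA. SK-OV-3 is a human ovarian cancer cell line, and all 12 samples came from it. Per the labels, cells were transfected with a scrambled shRNA, here shCTRL, or with one that targets IRF-1, here shIRF1. Both kinds were profiled without CDDP and after 24 hours of it, with 3 arrays for each of the 4 groups; CDDP is cisplatin, which forms platinum crosslinks in DNA. The CDDP dose, the shRNA sequence and the vector are not given in the sources used here, and the labels do not say that the arrays of a group came from separate cultures, so the p-values measure a spread between samples that may be technical.

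ZNF symbols name the largest family of human DNA-binding proteins. Most carry a row of C2H2 zinc fingers that reads DNA, and many add a KRAB domain, which recruits the corepressor KAP1 (TRIM28) and with it histone methylation and silencing, above all at transposable elements. Many KRAB members lie side by side in gene clusters, most of them on chromosome 19, where they arose by duplication. The symbol does not guarantee this function: ZNF622 and ZNF593 act in ribosome biogenesis, ZNF598 is a ubiquitin ligase that senses collided ribosomes, ZNF207 (BuGZ) works at the mitotic spindle, and ZNF185 is a LIM-domain protein of the actin cytoskeleton. Because duplicated members resemble each other, a probe may also bind a close paralog, and a value is uncertain to that degree.

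The targeted gene was examined first. Without CDDP, IRF1 read 8.30, 8.51 and 7.84 under shCTRL (normalized log2 signal, as for all levels given) and 8.59, 8.14 and 8.20 under shIRF1, and the groups overlap (log2 difference 0.10, SE 0.25, limma adjusted p = 0.902). With CDDP it read 9.97, 10.38 and 9.38 under shCTRL and 8.94, 9.08 and 9.26 under shIRF1, lower on every array of the latter but short of the threshold (-0.82, SE 0.25, adjusted p = 0.081). The arrays are therefore called by their label, and no knockdown is implied in cells without CDDP. Between 18075 and 21126 probes were detected per array, mean signals ran from 259 to 388, and arrays of a group correlated at 0.974 to 0.987. Of 9 markers of epithelial and ovarian cancer cells, 5 were detected on all 12 arrays (KRT8, KRT19, EPCAM, PAX8 and ERBB2), while MUC16 and WT1 were detected on at most 5 and 3. Of 10 measured markers of leukocytes, endothelium and fibroblasts, only COL1A1 was detected on all 12 arrays, CD3E, VWF and CDH5 on none, and CD14 on 10; the part of such signals in the results was not tested.

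With CDDP under shCTRL, the ZNF members rose far more often than they fell. A gene is counted as higher or lower where limma's adjusted p, taken over all 17988 features, was under 0.05. By that rule 87 of 238 members (36.6%) were higher, 11 (4.62%) were lower and 140 did not pass. Over all features 26.9% were called, 13.5% higher and 13.5% lower, and over the 11003 features detected on every array, which meet the members' own threshold, 33.6% were called, 17.4% higher and 16.2% lower. The members' share of rises was thus above both backgrounds, and their share of falls was below both. In bulk RNA, fewer cells in a given state and less RNA per cell cannot be told apart. The median log2 difference of the members was 0.423 (1.34-fold), with an interquartile range of 0.0482 to 0.831, beside a median of 0.0368 over all features and 0.0462 over those detected on every array. It was positive in 184 members and negative in 54. On the log2 scale the called rises ran from 0.44 to 2.86, with a median of 0.971 (1.96-fold). A change of at least 2-fold was reached by 39 of the called rises and 5 of the called falls.

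The shift shows in the level of the family as a whole on each array. Under shCTRL, the median over the 238 members was 6.82, 6.79 and 6.81 without CDDP and 7.24, 7.30 and 7.43 with CDDP. Under shIRF1, it was 6.86, 6.90 and 6.91 without CDDP and 7.08, 7.36 and 7.13 with CDDP. All 6 arrays with CDDP thus lay above all 6 without it, while the median of all features stayed between 6.54 and 6.57, where the normalization holds it. Of the 238 members, 135 had arrays that do not overlap between CDDP and none under shCTRL, or 56.7%, against 40.2% of all features and 49.4% of those detected on every array. How the arrays are scaled sets the number of calls: with each array scaled by its median in place of quantiles, 45 members were higher and 9 lower, all features were 6.21% higher and 10.4% lower, the higher share of all calls went from 50% to 37.5%, and that of the members' calls from 88.8% to 83.3%.

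**Figure D1:**
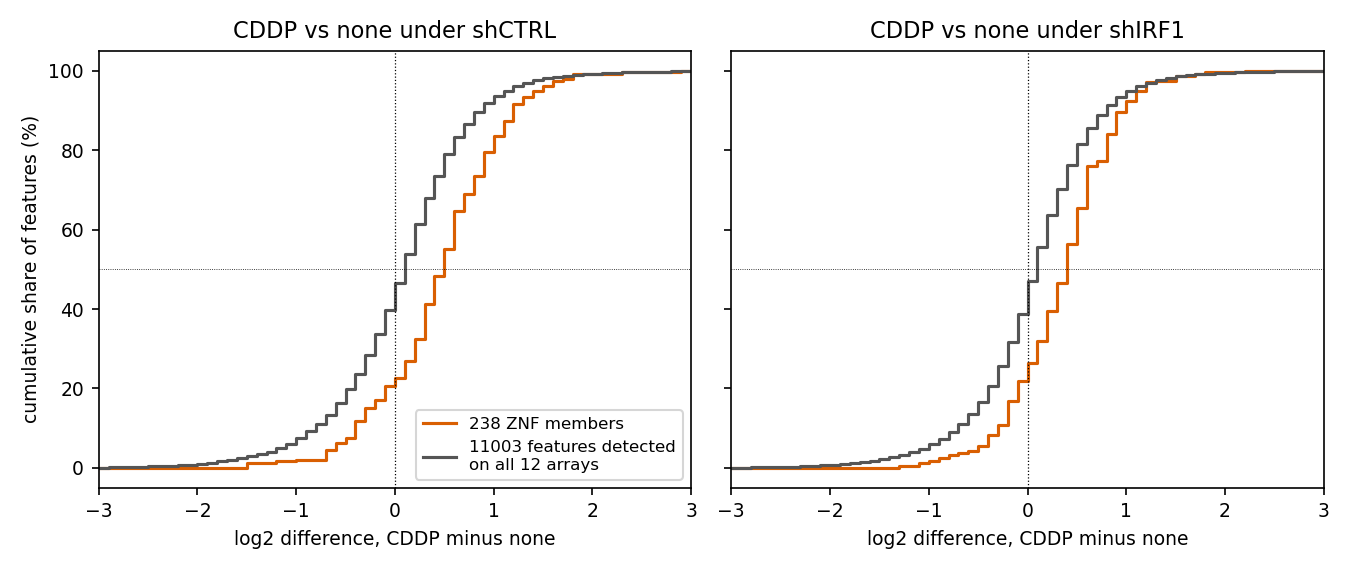
Cumulative share (%) of features at or below each log2 difference, CDDP minus none, under shCTRL (left) and shIRF1 (right), for the 238 ZNF members and the 11003 features detected on all 12 arrays. Over most of its length the members' curve lies to the right of the other in both panels, with medians of 0.423 and 0.333 beside 0.0462 and 0.0327.

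ZNF296, a C2H2 zinc finger protein, rose the most under both shRNA labels. It read 6.12, 6.64 and 6.53 on the shCTRL arrays and 9.22, 9.77 and 8.88 with CDDP. On the shIRF1 arrays it read 6.88, 7.15 and 7.14, and 9.50, 9.26 and 8.79 with CDDP. Every array with CDDP lay more than 1 log2 unit above every array without it, in rises of 7.28-fold (log2 2.86, SE 0.24, limma adjusted p = 7.32e-07) and 4.37-fold (2.13, SE 0.24, 1.58e-05). ZNF211, a KRAB zinc finger protein, came next under shCTRL, at 5.73, 5.91 and 6.0 without CDDP and 8.03, 8.26 and 8.03 with it (4.69-fold, SE 0.17 in log2, adjusted p = 3.2e-07). Under shIRF1 it went from 6.27, 6.11 and 6.36 to 7.90, 8.05 and 7.66. The groups lie far apart under both labels, and the step was 1.62 on the log2 scale under shIRF1 (adjusted p = 7.75e-06). Its readings without CDDP are low: ZNF101, just inside the detection threshold, read 5.26, 4.92 and 5.68 under shCTRL. The sizes of these rises depend on the processing. Over the alternatives described at the end, ZNF211 ran from 1.30 to 2.28 under shCTRL and ZNF296 from 2.03 to 3.05, and both calls were always kept.

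Other large rises included several KRAB zinc finger genes, though how often members carry the domain was not counted here. ZNF684, of this kind, read 6.07, 6.29 and 5.85 under shCTRL and 7.52, 8.05 and 7.92 with CDDP, a rise of 3.38-fold (adjusted p = 2.24e-05). Over the alternatives its log2 difference ran from 1.02 to 1.91. ZNF23 read 6.87, 6.77 and 6.93, and 8.47, 8.53 and 8.73 with CDDP, a rise of 3.29-fold (adjusted p = 7.24e-06). In both, the lowest array with CDDP stood above the highest without it by more than 1 log2 unit. ZNF250 rose 3.32-fold, ZNF845 3.06-fold, ZNF416 2.98-fold and ZNF419 2.88-fold under shCTRL, and all of these passed the test under shIRF1 as well, with log2 differences of 1.18, 1.44, 1.23 and 1.09. ZNF10 (KOX1), the source of a KRAB domain widely used in engineered repressors, went from 6.42, 6.32 and 6.59 to 7.95, 7.87 and 8.05 under shCTRL, and from 6.22, 6.82 and 6.82 to 7.55, 7.45 and 7.88 under shIRF1. Its arrays do not overlap under either label, and the rises were 2.85-fold (adjusted p = 3.73e-05) and 2.01-fold (0.00149). ZNF503 (NOLZ1), a repressor of the NET family with no KRAB domain, rose 2.81-fold under shCTRL (adjusted p = 0.00392). Under shIRF1 its arrays were wide apart, at 6.97, 6.37 and 5.38 without CDDP and 7.56, 7.52 and 6.82 with it, and they overlap. That call (log2 1.06, SE 0.34, adjusted p = 0.035) was lost when shIRF1 array 3 was left out (0.63, adjusted p = 0.164), as when any of 3 other arrays was: shIRF1 array 2, or shIRF1 array 1 or 2 with CDDP.

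Few members fell, and the same names led under both labels. ZNF532, known as a fusion partner of NUTM1 in NUT carcinoma, read 7.09, 6.87 and 7.04 on the shCTRL arrays and 5.42, 5.17 and 5.66 with CDDP, a fall of 2.99-fold (adjusted p = 1.46e-05). On the shIRF1 arrays it went from 6.41, 6.0 and 6.13 to 5.20, 4.88 and 4.87, a fall of 2.29-fold (adjusted p = 0.000244). Within each label every array with CDDP lay below every array without it. The readings of ZNF532 with CDDP are low under both labels, and on the shIRF1 arrays they are near those of undetected probes. ZNF407, detected on no array with CDDP, read 4.83, 4.55 and 4.65 on the shIRF1 arrays with CDDP. The size of both falls of ZNF532 is therefore uncertain. Over the alternatives they ran from -1.74 to -0.72 under shCTRL and from -1.34 to -0.43 under shIRF1. ZNF362, a relative of ZNF384, read 8.33, 8.19 and 8.11 and then 6.76, 6.70 and 6.65 under shCTRL, and 8.50, 8.49 and 8.49 and then 7.27, 6.55 and 7.72 under shIRF1 (falls of 2.84-fold and 2.49-fold, adjusted p = 0.000166 and 0.000666). No array with CDDP reached the lowest without it, though the shIRF1 arrays with CDDP were spread over more than 1 log2 unit.

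ZNF827, which recruits the NuRD complex to telomeres, changed by -1.58 under shCTRL (SE 0.27, adjusted p = 0.000398) and by -1.04 under shIRF1 (adjusted p = 0.0106, and 0.0608 without shIRF1 array 1). Over the alternatives these differences ran from -1.77 to -0.67 and from -1.38 to -0.54. ZNF395, first described as a papillomavirus binding factor, changed by -1.23 and -1.19 (adjusted p = 0.00082 and 0.00141). The KRAB gene ZNF586 changed by -1.08 and -0.84 and ZNF594 by -0.66 and -0.97, and both passed under both labels, ZNF594 under shCTRL only as long as shCTRL arrays 1 and 2 and CDDP arrays 1 and 2 were all kept (adjusted p = 0.0304 with all arrays, 0.0626 to 0.112 without 1 of them). ZNF341, a transcriptional activator of STAT3, changed by -0.76 and -0.60, and ZNF544 by -0.71 and -0.53, and these also passed under both. ZNF511 at -0.79, ZNF787 at -0.70 and ZNF112 at -0.60 were lower under shCTRL (adjusted p = 0.00927, 0.0155 and 0.0448, ZNF112 being the 1 remaining called fall, outside the rule for named genes), and at -0.29, -0.41 and -0.22 did not pass under shIRF1. ZNF320 at -0.95, ZNF219 at -0.74 and ZNF17 at -0.62 were lower under shIRF1 (adjusted p = 0.00247, 0.0266 and 0.0471), and at -0.46, -0.47 and -0.13 did not pass under shCTRL. Several of the smaller falls rest on single arrays. ZNF341 under shIRF1 lost its call without any 1 of the shIRF1 arrays or without array 1 or 2 with CDDP (adjusted p = 0.0623 to 0.13). ZNF219 did so without shIRF1 array 2 or 3 with or without CDDP (0.0522 to 0.105), ZNF787 without shCTRL array 2 or CDDP array 3 (0.0705 and 0.0723), and ZNF17 without any array but shIRF1 array 2 or 3 with CDDP (0.051 to 0.216). Whether the response of ZNF511, ZNF787, ZNF112, ZNF320, ZNF219 or ZNF17 differs between the labels is the interaction, which passed for no member.

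**Figure D2:**
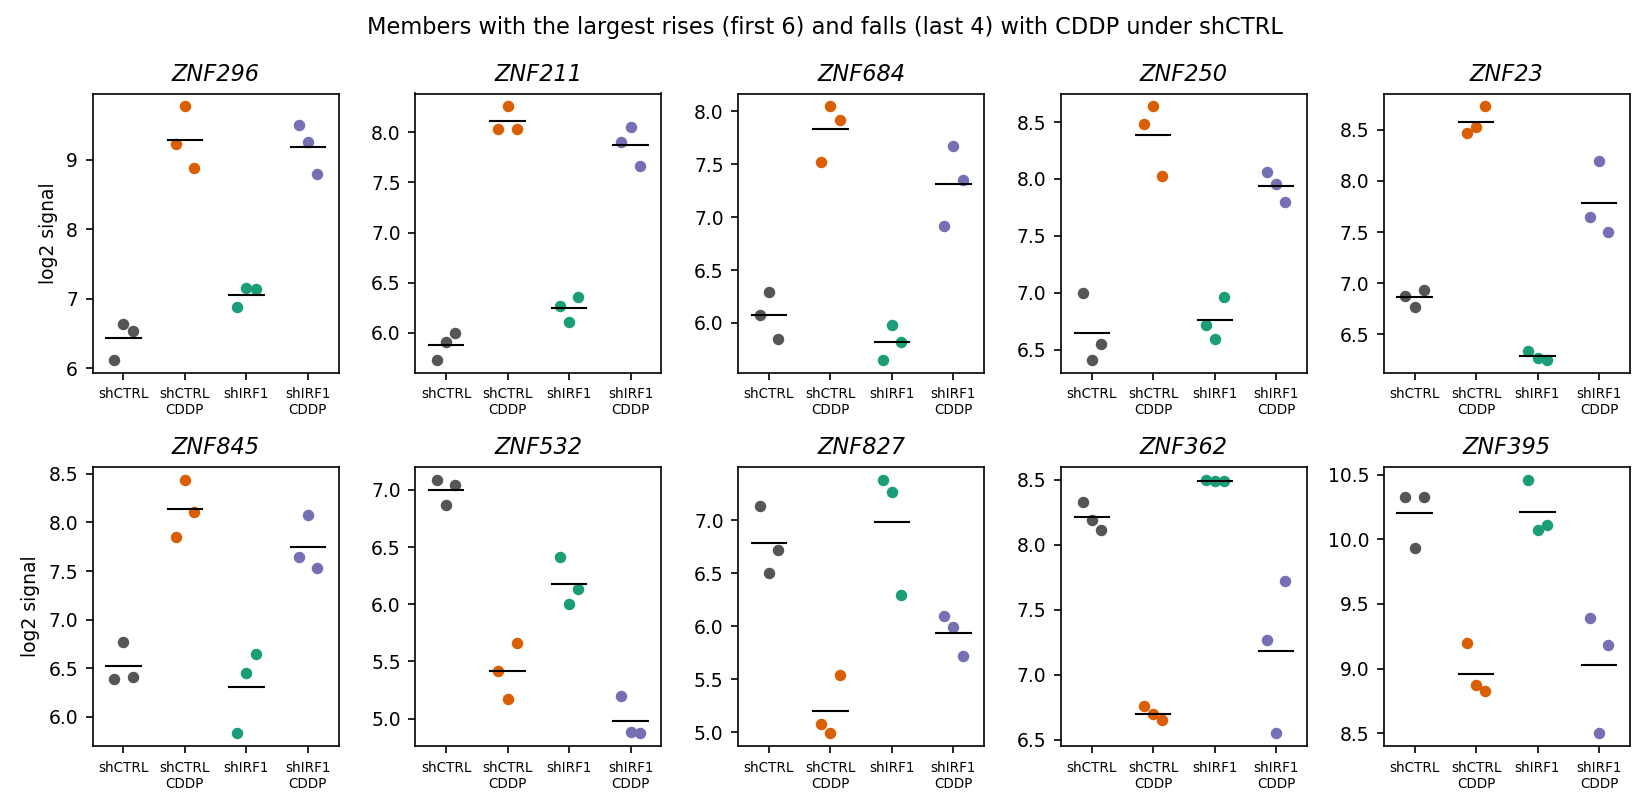
Normalized log2 signal of 10 members on each array (points) with the mean of each group (lines), for shCTRL and shIRF1 with and without CDDP, 3 arrays a group. In the first 6 panels every array with CDDP lies above every array without it within each shRNA label, as with ZNF296 at 8.79 or more against 7.15 or less, and in the last 4 panels the order is turned.

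A list of ZNF genes with described functions, silencing factors among them, holds 30 members. With CDDP, 12 of these were higher, 3 lower and 15 not called under shCTRL, and 9, 2 and 19 under shIRF1. The shares higher were of the same order as the 36.6% and 22.3% among all members. The falls are small counts, beside 4.62% of all members under each label. Over all features 13.5% were higher and 13.5% lower under shCTRL, and 10.5% and 11.5% under shIRF1. Among those of the ribosome, ZNF593 rose from at most 8.78 on the shCTRL arrays to at least 9.77 with CDDP (2.19-fold, adjusted p = 0.000319) and ZNF622 rose 2.14-fold (adjusted p = 0.000308), and both were higher under shIRF1 as well (log2 0.78 and 0.81). The chosen probe of ZNF598 differed by 0.20 and 0.55 and did not pass (adjusted p = 0.57 and 0.104), while another of its probes was higher under shIRF1 (1.17, adjusted p = 0.00266 in a fit with every probe as a feature). The KRAB and SCAN protein ZNF263 (0.99 and 0.88), the splicing and DNA repair factor ZNF830 (0.93 and 0.88), the VEGFA repressor ZNF24 (0.54 and 0.79) and ZNF274, which brings the methyltransferase SETDB1 to zinc finger gene clusters (0.54 and 0.56), were higher under both labels. ZNF384, a factor fused in acute leukaemia (1.09), the nucleolar ZNF330 (0.81), the SUMO ligase ZNF451 (0.60) and ZNF146 (0.44) were called under shCTRL, and ZNF22 (0.58) under shIRF1. Those near the threshold are unsteady: the call of ZNF146 (adjusted p = 0.0481) was lost with any of the 12 arrays left out, to between 0.0505 and 0.129, and under shCTRL ZNF24 and ZNF274 lost theirs without array 1 or CDDP array 2 (0.0999 to 0.126), ZNF274 also without array 3 (0.0517), and ZNF451 without array 1 or 2 or CDDP array 3 (0.0799 to 0.155). Under shIRF1 the calls of ZNF274 and ZNF22 were lost without 4 arrays each: without array 1 and CDDP array 2 for both, array 2 and CDDP array 3 for ZNF274, and array 3 and CDDP array 1 for ZNF22 (0.0684 to 0.156). No difference passed the test for the chosen probe of ZNF350 (ZBRK1, a BRCA1-binding repressor, 0.36 and -0.45), ZNF143, an activator of small nuclear RNA genes (-0.37 and -0.14), ZNF410, an activator of CHD4 (-0.38 and -0.05), the 20q oncogene ZNF217 (0.22 and 0.36), ZNF207 (-0.12 and 0.07) or ZNF91, a repressor of SVA elements (-0.33 and -0.04). Another probe of ZNF207 was lower under both labels in the fit with every probe (-0.82 and -0.55, adjusted p = 0.00234 and 0.0348). In that fit the other probes of ZNF274 did not pass under shCTRL (0.08 and 0.43, adjusted p = 0.898 and 0.167). Nor did those of ZNF451 (0.29, 0.577), ZNF330 (0.48, 0.0702) and ZNF146 (0.74, 0.11). Under shIRF1, other probes of ZNF274 (1.09, 0.0018) and ZNF22 (0.62, 0.0489) passed, and a further probe of ZNF274 did not (0.73, 0.153).

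The promoters of the members were searched for sequence motifs, which the selection of members did not use. RefSeq promoter windows, 250 bases before to 50 bases after the annotated start of a gene (assembly GRCh38.p14), were matched by gene identifier for 208 members, and 30 had none. The 6 windows printed here are of members that rose under both labels, with ZNF296 for the largest rise, and of ZNF362 for a large fall. They were chosen partly by whether they hold the motif marked below, and every window but that of ZNF296 holds it. The printed windows therefore do not show how common the motif is. It stood in 50.7% of the windows of members higher with CDDP under shCTRL. Capitals mark the letters CCGGAAG or their reverse complement CTTCCGG, the core bound by ETS factors, and each window is written 5′ to 3′ along the strand of its gene.
ZNF296 (chr19:45076429-45076728, minus strand): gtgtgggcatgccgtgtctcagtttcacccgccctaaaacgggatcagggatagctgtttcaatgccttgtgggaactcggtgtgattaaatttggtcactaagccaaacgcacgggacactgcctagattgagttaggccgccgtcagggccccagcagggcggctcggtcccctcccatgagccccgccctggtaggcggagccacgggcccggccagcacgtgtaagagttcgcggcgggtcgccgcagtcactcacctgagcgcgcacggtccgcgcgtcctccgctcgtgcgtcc
ZNF684 (chr1:40531387-40531686, plus strand): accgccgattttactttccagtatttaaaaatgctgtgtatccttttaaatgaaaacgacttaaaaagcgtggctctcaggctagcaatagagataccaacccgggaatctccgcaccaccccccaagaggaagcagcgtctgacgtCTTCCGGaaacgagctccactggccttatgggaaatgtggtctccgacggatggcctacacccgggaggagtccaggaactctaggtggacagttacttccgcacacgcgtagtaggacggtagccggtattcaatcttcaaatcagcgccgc
ZNF23 (chr16:71462198-71462497, minus strand): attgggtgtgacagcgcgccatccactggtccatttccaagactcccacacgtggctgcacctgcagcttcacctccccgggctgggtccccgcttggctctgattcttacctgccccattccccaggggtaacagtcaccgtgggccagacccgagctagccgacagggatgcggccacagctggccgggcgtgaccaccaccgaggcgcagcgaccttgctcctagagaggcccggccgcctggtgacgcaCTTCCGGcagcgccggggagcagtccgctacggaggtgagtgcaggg
ZNF845 (chr19:53333499-53333798, plus strand): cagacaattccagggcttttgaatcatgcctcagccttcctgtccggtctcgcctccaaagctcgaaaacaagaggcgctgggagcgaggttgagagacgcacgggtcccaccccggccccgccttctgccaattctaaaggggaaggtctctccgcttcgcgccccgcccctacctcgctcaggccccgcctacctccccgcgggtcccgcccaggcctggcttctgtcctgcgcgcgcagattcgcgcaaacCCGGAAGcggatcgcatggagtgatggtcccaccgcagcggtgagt
ZNF416 (chr19:57578862-57579161, minus strand): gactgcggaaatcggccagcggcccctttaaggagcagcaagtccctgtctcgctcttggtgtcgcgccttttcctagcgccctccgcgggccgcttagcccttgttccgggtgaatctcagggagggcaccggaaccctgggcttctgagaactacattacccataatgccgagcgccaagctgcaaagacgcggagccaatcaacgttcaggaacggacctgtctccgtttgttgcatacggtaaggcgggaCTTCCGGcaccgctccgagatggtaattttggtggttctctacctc
ZNF362 (chr1:33256242-33256541, plus strand): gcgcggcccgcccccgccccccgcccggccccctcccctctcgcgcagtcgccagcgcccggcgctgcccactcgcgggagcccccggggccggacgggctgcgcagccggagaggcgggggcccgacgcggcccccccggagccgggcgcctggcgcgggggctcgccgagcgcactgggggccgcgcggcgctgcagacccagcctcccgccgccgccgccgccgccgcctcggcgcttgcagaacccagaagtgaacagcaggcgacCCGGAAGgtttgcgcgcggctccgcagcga

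The ETS letters, searched on both strands, were present in 86 of the 208 member windows (41.3%), in 10.7% of all 27305 windows and in 21.2% of the 7217 windows of genes detected on every array. Windows of members higher with CDDP under shCTRL held them in 38 of 75 (50.7%), those of lower members in 5 of 9 (55.6%) and those of members not called in 43 of 124 (34.7%). The letters were thus about as frequent in members that fell as in members that rose, and ZNF296 has none in its window. The letters GGGCGG of the SP1 box were present in 67.8% of member windows and 71.9% of windows of detected genes. The NRF1 motif, GCGC with 2 bases of any kind before a second GCGC, stood in 16.8% and 17.6%, and in 8% of the windows of higher members beside 23.4% of those not called. AAGATGGC, read by YY1, stood in 6.73% and 6.11%, and the cyclic AMP response element TGACGTCA in 5.29% and 3.64%. GAAA with 2 bases of any kind before a second GAAA, the repeat that IRF proteins including IRF1 read, stood in 1.92% of member windows, 2.73% of those of detected genes and 3.65% of all, and the TATAAA box in 1.44%, 5.17% and 12%. A match says only that the letters stand in the window, and no match bears on whether a factor binds.

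With CDDP under shIRF1 the family moved the same way. Of 238 members, 53 (22.3%) were higher and 11 (4.62%) lower, beside 22% of all features called (10.5% higher, 11.5% lower) and 27.6% of those detected on every array (14.1% higher, 13.6% lower). The members' total share of 26.9% is therefore near the background, and what sets them apart from it in these counts is the split between rises and falls. The median log2 difference was 0.333 (1.26-fold), positive in 175 members, beside 0.0238 over all features, and 97 members (40.8%) had arrays that do not overlap, beside 36.9% of all features and 44.6% of those detected on every array, so that share lies between the backgrounds. With arrays scaled by their medians 26 members were higher and 7 lower. The count of falls was also 7 when shIRF1 array 1 or shIRF1 array 2 was left out.

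ZNF689, a KRAB zinc finger protein, had the second largest rise here, from 8.04, 8.26 and 7.42 to 9.96, 9.68 and 9.48 (3.48-fold, adjusted p = 3.86e-05). Under shCTRL it went from 8.53, 8.24 and 8.36 to 10.02, 9.55 and 9.53 (2.50-fold, adjusted p = 0.000422). The levels with CDDP nearly coincide, and the groups without it lie below them in every array. ZNF567 rose by 1.17 under shIRF1 and 1.21 under shCTRL, and ZNF317 by 1.17 and 1.28, each in all 3 arrays against all 3 within a label.

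The comparisons of CDDP with none under shCTRL and under shIRF1 share no arrays, though they share a normalization and an estimate of the spread. Of the 87 members higher under shCTRL, 47 (54%) were higher under shIRF1, which are 88.7% of the 53 higher there. Of 11 lower under each label, 8 (72.7%) were shared. None was higher under one label and lower under the other. Over the 238 members the log2 differences correlated with a Pearson r of 0.854 and a Spearman rho of 0.798, a description across genes, which are not independent, and over all 17988 features Pearson r was 0.825. The sign was the same in 203 members.

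**Figure D3:**
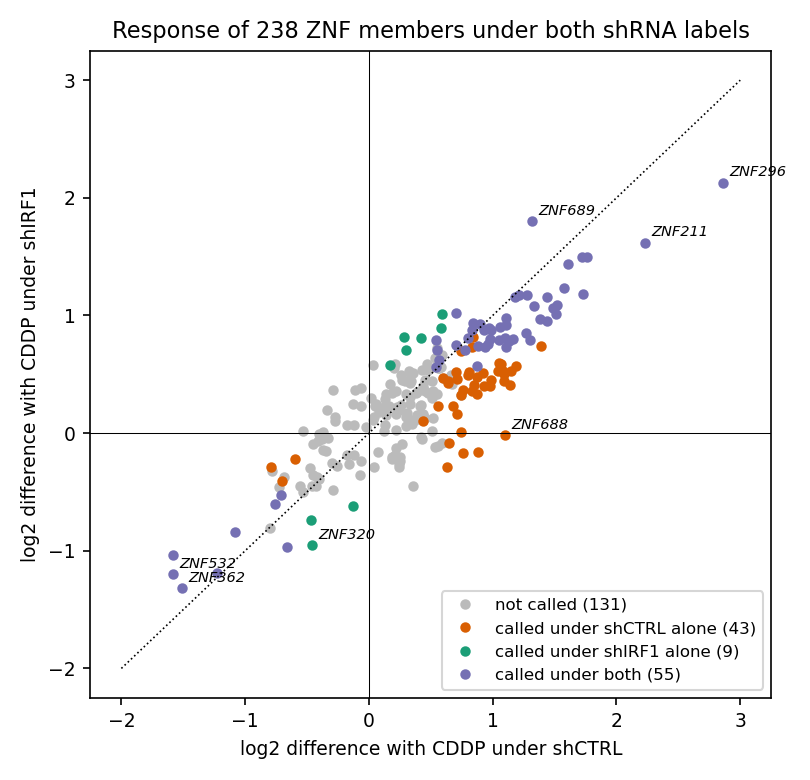
Log2 difference with CDDP under shCTRL (horizontal) and under shIRF1 (vertical) for each of the 238 members, coloured by where it was called; the dotted line marks equal differences. Most points lie in the quadrant of rises under both labels, with 55 members called under both, 43 under shCTRL alone and 9 under shIRF1 alone.

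Without CDDP, the shRNA label went with few differences among the members. Compared with shCTRL, 2 members were higher and 3 lower on the shIRF1 arrays, or 2.1% of 238, beside 5.84% of all features (3.1% higher, 2.74% lower), so the members' share was below the background. At an unadjusted p under 0.05 there were 26 members, or 10.9%, beside 17.1% of all features. The median difference was 0.0605. ZNF622, the factor of the large ribosomal subunit, read 9.66, 9.58 and 9.50 under shCTRL and 8.40, 8.60 and 8.95 under shIRF1, a fall of 0.94 on the log2 scale (adjusted p = 0.00502). ZNF532 was lower by 0.82 and ZNF185 by 0.64 (log2 -0.82 and -0.64, adjusted p = 0.0146 and 0.0293), and ZNF320 and ZNF721 were higher by 0.87 and 0.85 (adjusted p = 0.0152 and 0.0232). All 5 had arrays that do not overlap between the labels. These counts rest on single arrays: the higher count was 1 without shCTRL array 1, 0 without shCTRL array 2 or shIRF1 array 1, and 6 without shIRF1 array 3, and the lower count was 1 without shCTRL array 1 or 3. ZNF622 passed with any 1 array left out. With arrays scaled by their medians none of the 5 passed, and adjusted p was 0.0595 for ZNF622, 0.0923 for ZNF532, 0.324 for ZNF185, 0.197 for ZNF320 and 0.325 for ZNF721.

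With CDDP on both sides, 3 members were lower and 0 higher on the shIRF1 arrays by limma, or 1.26%, beside 3.85% of all features (1.65% higher, 2.21% lower), and 42 members (17.6%) had an unadjusted p under 0.05, beside 18.2% of all features. ZNF622 was again lower, at 10.68, 10.85 and 10.53 under shCTRL and 9.63, 9.34 and 9.41 under shIRF1. The groups lie about 1 log2 unit apart, a difference of -1.23 (adjusted p = 0.000974), and this comparison shares no arrays with the one without CDDP. ZNF622 thus rose with CDDP under both labels and was lower on shIRF1 arrays with and without it. ZNF23, which rose with CDDP under both labels, was lower by 0.79 (log2 -0.79, adjusted p = 0.0263), and by 0.57 without CDDP, where it did not pass (-0.57, adjusted p = 0.0975). ZNF688, a KRAB gene, read 6.60, 6.46 and 6.50 under shCTRL and 5.70, 5.74 and 5.58 under shIRF1 (-0.85, adjusted p = 0.0183). Over the alternatives described at the end this difference ran from -0.88 to -0.37. The lower count was 1, that of ZNF622, without shIRF1 array 1 or 3 with CDDP, the higher count 1 without shIRF1 array 2 with CDDP and 5 without shIRF1 array 3. The call of ZNF688 was also lost without shCTRL array 1 with CDDP (adjusted p = 0.0587), and that of ZNF23 without shCTRL array 2 or 3 with CDDP (0.0582 and 0.0852). With median scaling ZNF688 and ZNF23 did not pass (adjusted p = 0.218 and 0.244), the members were 1 higher and 1 lower, and the higher share of all calls went from 42.7% to 56.6%.

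**Figure D4:**
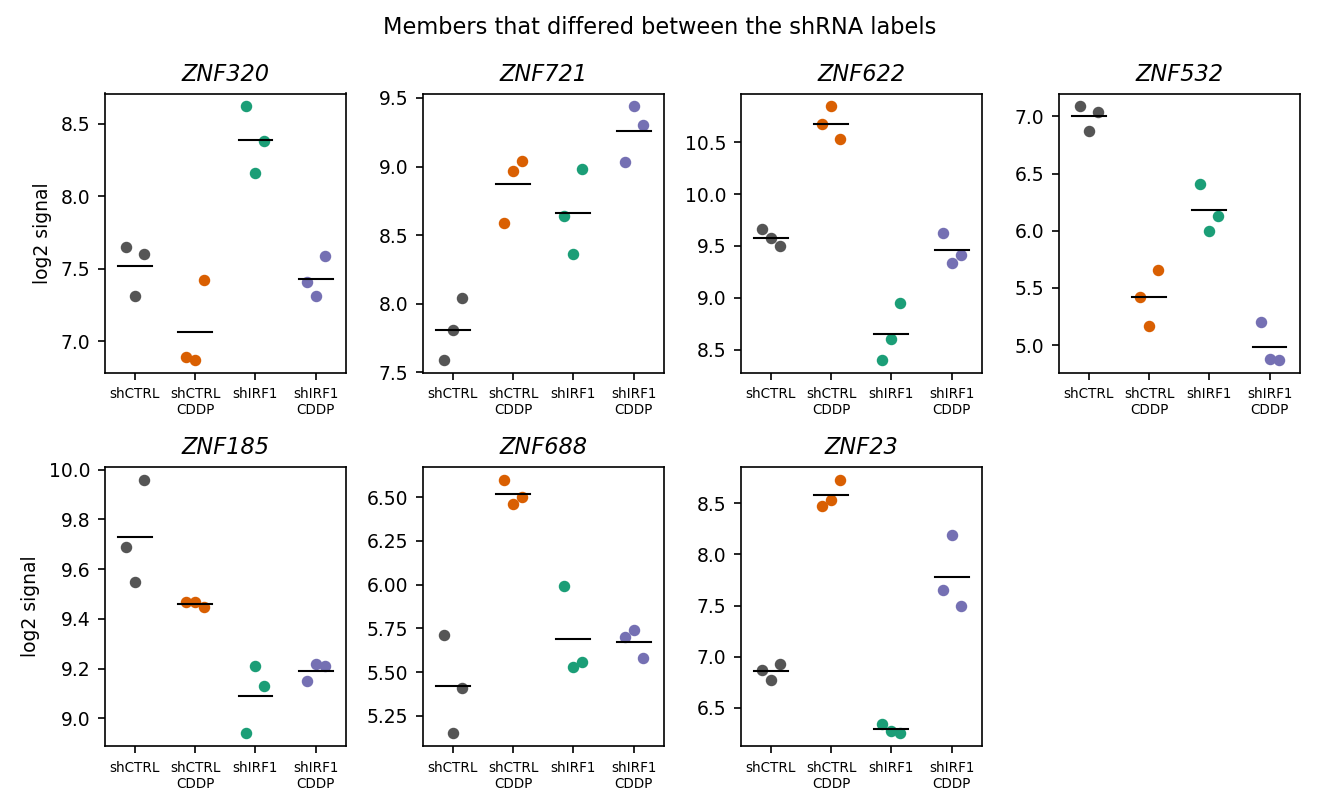
Normalized log2 signal on each array (points) and group means (lines) for the members called between shIRF1 and shCTRL, without or with CDDP. ZNF622 lies lower on the shIRF1 arrays in both states, at 8.95 or less against 9.50 or more without CDDP and 9.63 or less against 10.53 or more with it.

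Whether the response to CDDP differed between the labels was tested as the interaction of shRNA and CDDP. By limma 0 of 238 members passed, beside 0.0723% of all features, and 13 members (5.46%) had an unadjusted p under 0.05, beside 8.12% of all features. ZNF688 came nearest: it rose under shCTRL from 5.71, 5.15 and 5.41 to 6.60, 6.46 and 6.50, and on the shIRF1 arrays read between 5.53 and 5.99 on all 6 arrays. The rise of 1.10 under shCTRL and the difference of -0.02 under shIRF1 leave an interaction of -1.12, with a 95% interval of -1.68 to -0.56 before adjustment and an adjusted p of 0.2. Most of these readings are low, near the mean of 5.51 of ZNF101 at the detection threshold. Over the alternatives described at the end the interaction of ZNF688 ran from -1.27 to -0.46. ZNF580 (-1.04, adjusted p = 0.313) and its neighbour ZNF581 (-0.92, adjusted p = 0.449) had the next smallest unadjusted p-values. A p that misses the threshold does not show that the responses were alike.

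Members on chromosome 19, where 119 of the 238 lie, rose about as often as the others. On chromosome 19, 43 of 119 members were higher and 4 lower with CDDP under shCTRL, and on the other chromosomes 44 of 119 were higher and 7 lower. Under shIRF1 these were 26 and 4, and 27 and 7. Of 489 other named genes of chromosome 19 detected on every array, 92 were higher and 48 lower under shCTRL (18.8% and 9.82%). With genes at most 250 kb apart joined, the members fall into 117 runs, of which 11 hold 5 or more. The longest, ZNF805 to ZNF446 at the end of chromosome 19, has 22 members, of which 12 were higher and 2 lower under shCTRL and 8 higher and 3 lower under shIRF1. It holds ZNF211, ZNF416 and ZNF419, with rises of 2.23, 1.58 and 1.52 on the log2 scale, and also ZNF586 and ZNF544, which fell by 1.08 and 0.71. The run ZNF576 to ZNF180 has 12 members with 0 higher and 1 lower under shCTRL, and 1 higher and 0 lower under shIRF1. Its median log2 differences were still positive, at 0.324 under shCTRL and 0.417 under shIRF1, beside 0.576 and 0.404 in the longest run. The run ZNF205 to ZNF597 on chromosome 16 has 6 members, with 4 higher under shCTRL and 2 under shIRF1. Of all features detected on every array, 17.4% were higher under shCTRL and 14.1% under shIRF1. The share of calls thus differed between runs, and the longest run held both rises and falls. This is a description, since neighbouring members are close paralogs whose probes may share targets.

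**Figure D5:**
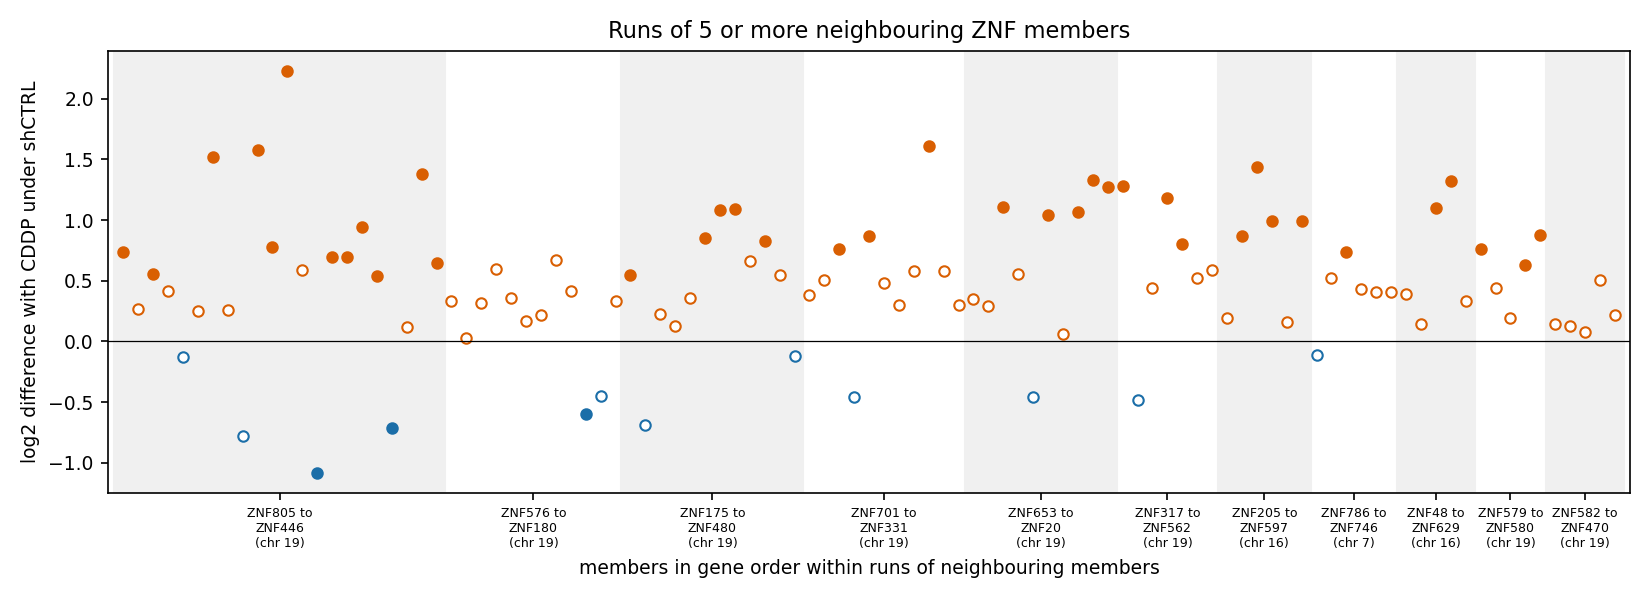
Log2 difference with CDDP under shCTRL for the members in the 11 runs of 5 or more neighbours, in gene order; filled points passed the test, open points did not, and shading separates runs. In the run ZNF805 to ZNF446, 12 members were higher and 2 lower. In ZNF576 to ZNF180 none passed as higher, though the median of the run was 0.324.

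Members that rose came from shorter genes than members that fell. Under shCTRL the median span from start to end of the gene was 16880 bases for higher members, 23950.5 for those not called and 40871 for lower ones, and under shIRF1 it was 16677, 23007 and 44830. Span and log2 difference correlated across the 238 members with a Spearman rho of -0.304 and -0.227, while the mean level did so with a rho of -0.0815 and 0.00763; both are descriptions across genes. The brightest probes were those of ZNF674, ZNF430, ZNF486, ZNF549 and ZNF207, and none of these 5 passed in either CDDP comparison. ZNF430, ZNF486 and ZNF549 shared a low reading on shIRF1 array 3, at 11.47, 10.81 and 10.60 against 11.86 or more on the other 2 arrays of the group.

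A further probe of the same gene was tested for 65 members, in a fit with every probe as a feature. Of the 23 called members with such a probe under shCTRL, 21 had one of the same sign, 11 had one that was itself called in the same direction, and none had one called in the opposite direction. Under shIRF1 these were 14 members, 14, 11 and 0. Of the members whose chosen probe was not called, 8 of 42 under shCTRL and 10 of 51 under shIRF1 had another probe that was called, so the call of such a gene depends on the probe. ZNF626 read -0.18 under shCTRL on the chosen probe, while 3 of its other probes were higher (1.67, 1.38 and 0.99, adjusted p = 0.000303, 0.000158 and 0.00515). ZNF549 read -0.78 (adjusted p = 0.078) on the chosen probe and 0.66 (adjusted p = 0.0151) on another. ZNF557 read 0.02 and 0.94 (adjusted p = 0.978 and 0.00901), and ZNF514 -0.40 and -0.71 (0.252 and 0.0177), in the same order. These 4 genes were named after their values were seen.

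KRAB zinc finger proteins act through KAP1 and its partners, so 34 genes of that machinery were read beside the members, of which 29 were tested. TRIM28, which encodes KAP1, read 9.01, 9.18 and 9.49 under shCTRL and 10.01, 10.41 and 9.99 with CDDP, and 8.65, 8.59 and 8.87 and then 9.89, 9.95 and 9.68 under shIRF1. It was higher in every array with CDDP than in any without it, by 1.88-fold and 2.20-fold (adjusted p = 0.00173 and 0.000386). It was the one listed gene that rose under shCTRL, where 7 fell: the HP1 gene CBX1 (-0.72), 5 genes of NuRD, namely CHD4 (-0.85), MTA1 (-0.62), RBBP4 (-0.66), GATAD2A (-1.19) and GATAD2B (-0.99), and PPHLN1 of the HUSH complex (-0.71). The other tested genes of NuRD did not pass under shCTRL: CHD3 (0.46), MTA2 (0.22), HDAC1 (-0.47), HDAC2 (-0.11) and RBBP7 (-0.05). Under shIRF1, UHRF1 (0.64), MORC2 (0.92) and DAXX (0.95) rose beside TRIM28, and MTA1 (-0.58) and GATAD2A (-0.59) fell. Of the 29 tested, 1 was higher, 7 lower and 21 not called under shCTRL, and 4, 2 and 23 under shIRF1. Over all features 26.9% were called under shCTRL (13.5% higher, 13.5% lower) and 22% under shIRF1 (10.5% higher, 11.5% lower). The list's total of calls was therefore near the background under both labels. The list's median was -0.177 and -0.0808. The methyltransferase gene SETDB1 differed by -0.16 and -0.56, and the HP1 genes CBX3 by -0.23 and 0.36 and CBX5 by -0.48 and 0.16, none of which passed. Between the labels UHRF1 was lower without CDDP (-1.19, adjusted p = 0.000828), 0 of the 29 passed with CDDP, and 0 passed the interaction. Over all features 5.84%, 3.85% and 0.0723% passed these tests, in the same order.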

How the data were processed

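Messenger RNA of 12 SK-OV-3 samples was measured on 12 Illumina arrays, 3 for each of 4 groups set by the labels. The arrays were processed with BeadStudio 2, per the submitters' processing notes; no build of the platform annotation was given. The deposited non-normalized table holds, per the file headers, an intensity (the mean signal over a probe's beads, linear and not scaled between arrays) and a detection p-value against negative controls. The authors' series matrix holds an intensity on a linear scale that followed the array's own signal linearly (r = 1 on each array, factors 1.37 to 2.66, column medians 116 to 132). It is not centred and brighter is higher, and what set its factors is unknown.

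Normalization used neqc (limma 3.58.1, R 4.3.3) by normexp with control statistics inferred from detection p-values, offset 16, quantiles and log2. Of 47313 probes, 30109 have 1 platform symbol, 8 several and 17196 none. The 22260 probes detected at p under 0.05 on at least 3 arrays were reduced to 1 probe per symbol, with preference for probes detected on all 12 arrays and then for the highest mean signal. This left 17988 features, 12492 of them named. All 238 member symbols were current in RefSeq, which also gave chromosomes, spans and neighbours. Lower intensities and 3 arrays a group limit the precision.

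A linear model with 1 mean per group over all 12 arrays was fitted with limma (lmFit, eBayes, 8 residual and 7.19 prior degrees of freedom), two-sided, with Benjamini-Hochberg adjustment over all features and a threshold of 0.05. It was tested on simulated data. Named genes were IRF1, in each pairwise comparison the 10 largest rises and falls among called members whose arrays do not overlap, the 3 smallest p-values of the interaction, the 5 brightest members, those at the detection threshold, members with a listed role, and KAP1, SETDB1, HP1 and called genes of the KAP1 list. The members, lists and tests were chosen with earlier results of these data known. Proteins and probe sequences were not analysed here.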

Additional observations from a re-analysis of the deposited data

How the results depend on the processing

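Alternatives were background correction, scaling, the deposited series matrix, detection filters, probe choice, array weights, a variance trend, the groups compared alone, all 358 tested ZNF symbols as members, each array left out in turn and, chosen after seeing the data, the 2 arrays of lowest weight left out together (shCTRL with CDDP 3 and shIRF1 with CDDP 1). Of 69 calls of named genes, 43 passed under every alternative in which the gene had a value. The other 26 lost the call under at least 1, and 0 changed sign. Among the 43, some calls with CDDP had no value in 1 alternative. These were ZNF532 under both labels, ZNF827 and ZNF341 under shCTRL, and ZNF594 under shIRF1.

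The median log2 difference of the members with CDDP, 0.42 under shCTRL and 0.33 under shIRF1, was 0.24 and 0.17 without background correction, 0.31 and 0.22 on series matrix values, 0.27 under shCTRL with median scaling and 0.32 there over all tested ZNF symbols. Median scaling gave 45 higher members under shCTRL, 26 higher and 7 lower under shIRF1, 0 higher and 0 lower between labels without CDDP and 1 and 1 with it, and turned the median of the interaction from -0.09 to 0.02. Lower members numbered 7 and 7 with detection p under 0.01 on all 12 arrays, and 19 and 22 over all tested ZNF symbols. Between labels with CDDP, members higher numbered 2 without background correction or with a variance trend, and 1 on series matrix values, with the stricter detection, with the groups compared alone or over all tested ZNF symbols; members lower numbered 1 without the 2 arrays of lowest weight. Counts over all tested ZNF symbols come from the main fit with more genes counted, 8 and 11 of the lower ones being among the 120 other symbols. With the stricter detection ZNF532, ZNF827, ZNF341 and ZNF594, lower under both labels in the main fit, had no value. The cause of the remaining shifts was not tested.

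With 1 array left out, members higher and lower with CDDP ran from 67 to 91 and from 9 to 14 under shCTRL (median 0.40 to 0.44), and from 38 to 57 and from 7 to 14 under shIRF1 (0.28 to 0.37). Between labels they ran from 0 to 6 and from 1 to 3 without CDDP (0.04 to 0.08), and from 0 to 5 and from 1 to 4 with it (-0.14 to -0.06). The interaction had 0 throughout. With the replicate block the counts were 90 and 12 under shCTRL, 62 and 11 under shIRF1, 2 and 3, 0 and 3 between labels, and 0 for the interaction. Deviations from the group means correlated at -0.0277 to 0.236 between arrays of the same number, 10 of 18 such pairs being over 0.1, and at -0.229 to 0.0956 between arrays of different numbers. In 10 of 12 arrays the best partner had the same number, a hint in the data at shared replicate sets that the labels do not state. Since not every pair was over 0.1, the block was kept as an alternative. Dim probes near the negative controls carry the least certain differences.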

Other observations

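Among ZNF symbols outside the rule, 120 were tested, and with CDDP 21 were higher (17.5%) and 8 lower (6.67%) under shCTRL, beside 13.5% and 13.5% of all features. Under shIRF1, 15 were higher (12.5%) and 11 lower (9.17%), beside 10.5% and 11.5%. All features include those detected on every array, of which 17.4% and 14.1% were higher, so they are not a matched background for these symbols. Features detected on fewer arrays were not counted apart. The median log2 difference of the 120 symbols was 0.161 under shCTRL and 0.197 under shIRF1, beside 0.0368 and 0.0238 over all features. ZNF407 and ZNF425 were chosen after their values were seen, for where they were detected, so their levels are given with no test. Without CDDP, ZNF407 read 6.72, 6.97 and 7.01 under shCTRL and 7.12, 6.96 and 7.16 under shIRF1, and was detected on all 6 of these arrays and on none of the 6 with CDDP. ZNF425 was detected under shCTRL on 0 of 3 arrays without CDDP and on 3 of 3 with it, where it read 6.66, 6.55 and 7.0.

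Other zinc finger families were also counted, here over genes detected on all 12 arrays as the members were. Of 25 ZBTB genes, which pair zinc fingers with a BTB domain, 6 were higher and 2 lower with CDDP under shCTRL, and 4 and 4 under shIRF1. Of 10 ZSCAN and ZKSCAN genes, 4 were higher and 0 lower under both labels. Of 8 ZFP genes, 4 were higher and 1 lower under shCTRL, and 4 and 0 under shIRF1. Of 18 ZNF genes with a letter after the digits, 5 were higher and 0 lower under shCTRL, and 6 and 0 under shIRF1. The shares higher under shCTRL were 24%, 40%, 50% and 27.8% in this order. Over all features detected on every array 17.4% were higher and 16.2% lower under shCTRL, and 14.1% and 13.6% under shIRF1. Rises outnumbered falls in each family under shCTRL, in small counts, but not among ZBTB genes under shIRF1. Over all 36 tested ZBTB genes, 6 were higher and 3 lower under shCTRL, and 4 and 6 under shIRF1. The difference between these families and the ZNF members was not tested.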
